A study of Mus musculus with 38 samples.

Results

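The 49 genes described here are genes of the cell division cycle, of 29353 genes with probes on the array: 19 of DNA replication (cyclins E, E2F factors, the licensing and fork proteins, nucleotide supply and the S phase checkpoint) and 30 of mitosis (the mitotic cyclins and kinases, centromere proteins, kinesins and the machinery of chromosome separation). The rule takes them by name, though the list was drawn up with earlier results of these data known. Of the 49, 48 were found under their own name and Cdk1 under its older name on the array, and together they had 78 probes, with more than 1 probe for 22 genes. A gene is represented by its probe of highest mean level over the arrays.

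A dividing cell copies its DNA in S phase and parts the copies in mitosis. The genes for copying are switched on by E2F factors when a cell leaves G1, and the genes for mitosis follow in G2 under B-MYB and FOXM1, while in resting cells both sets are held silent by pocket proteins of the retinoblastoma family. Their mRNAs are therefore read as a measure of how many cells of a tissue are cycling, and in fat they are known from growing stromal progenitors, from endothelium and from macrophages that divide in place as the depot expands.

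RNA of stromal vascular cells of epididymal fat (the cells that remain once adipocytes have floated off, which the labels call infiltrating macrophages) from C57BL/6J mice was hybridised to 38 one-colour Agilent arrays, 1 for each diet and time point. Weaned mice were fed a low fat diet (LFC, 10 arrays), a high fat and high sucrose diet (HFC, 10 arrays), or HFC plus KAL-1, a mixture of plant origin, at 5, 20 or 75 µg; these dose groups are called HF5, HF20 and HF75 and have 6 arrays apiece. The control diets were sampled on days 6, 10 and 14 (D6, D10, D14), at week 0 (W0, counted as day 14 here), and together with the doses every 3 weeks from W3 to W18, which is elapsed day 140. How many mice stand behind an array is not given in the sources used here. No scan day held arrays of more than 1 time point, though W3, W6, W9 and W18 were each scanned on more than 1 day. Between time points, the age, the scan day and the mice therefore cannot be told apart. The dose labels of the HF5 and HF20 arrays at W15 and W18 conflict, and the dose of the title was used.

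The level of a probe is its log2 signal minus the log2 75th percentile of its array, so 0 is a signal that 75% of spots do not exceed and 1 unit is a doubling. Levels follow 1 gene across arrays and are not compared between genes. Of the 49 genes, 12 were well above background on all 38 arrays, 45 on at least 30, and Ttk, a kinase of the spindle checkpoint, on 4; Ttk was the only gene left out of every test by the filter on dim probes. The HF5 W12 array was very dim (75th percentile 25.8 scanner units against 88.4 to 1983 on the others), with 33 of the 49 genes not well above background, against 13 at LFC W18, 13 at HF75 W3 and 0 to 6 elsewhere. All 8 macrophage markers examined were well above background on at least 35 arrays, and so were 6 of 6 stromal progenitor, 5 of 5 endothelial and 8 of 9 adipocyte markers, so the RNA was not of macrophages alone. In such mixed RNA, fewer dividing cells and less of these mRNAs per cell cannot be told apart.

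Stretches of 180 bases of promoter (150 before to 30 after the start, RefSeq, GRCm38.p6, 5′ to 3′) are shown for 4 mitosis genes whose mRNA fell with elapsed time and for Mcm6 and Mcm3, replication genes with an E2F match. Capitals mark matches, on either strand and with overlaps kept, to E2F (TTTCCCGC, TTTCGCGC, TTTGCCGC or TTTGGCGC), to the cell cycle homology region CHR (TTTGAA), the letters bound by the complex that holds B-MYB, or to CCAAT, the letters bound by NF-Y.
Cdk1 (chr10:69352883-69353062, minus strand): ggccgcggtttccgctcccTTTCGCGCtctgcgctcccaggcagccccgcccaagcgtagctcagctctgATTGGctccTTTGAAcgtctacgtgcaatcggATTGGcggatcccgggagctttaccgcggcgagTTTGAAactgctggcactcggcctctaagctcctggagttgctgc
Cdca8 (chr4:124936888-124937067, minus strand): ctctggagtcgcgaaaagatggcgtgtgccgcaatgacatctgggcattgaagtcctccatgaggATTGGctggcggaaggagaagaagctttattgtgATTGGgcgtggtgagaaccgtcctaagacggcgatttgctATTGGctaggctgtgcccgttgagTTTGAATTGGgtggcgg
Prc1 (chr7:80294301-80294480, plus strand): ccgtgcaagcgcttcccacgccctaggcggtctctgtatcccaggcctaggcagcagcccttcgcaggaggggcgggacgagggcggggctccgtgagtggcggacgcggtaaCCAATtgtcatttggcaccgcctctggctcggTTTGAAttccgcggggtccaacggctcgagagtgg
Plk1 (chr7:122159285-122159464, plus strand): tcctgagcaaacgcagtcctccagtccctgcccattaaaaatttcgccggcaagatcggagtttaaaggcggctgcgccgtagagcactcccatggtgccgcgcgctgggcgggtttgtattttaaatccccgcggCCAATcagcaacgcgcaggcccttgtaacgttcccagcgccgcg
Mcm6 (chr1:128359676-128359855, minus strand): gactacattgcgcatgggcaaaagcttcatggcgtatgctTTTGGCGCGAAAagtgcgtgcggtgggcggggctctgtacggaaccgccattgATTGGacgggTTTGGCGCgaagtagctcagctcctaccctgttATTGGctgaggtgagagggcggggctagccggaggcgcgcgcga
Mcm3 (chr1:20820283-20820462, minus strand): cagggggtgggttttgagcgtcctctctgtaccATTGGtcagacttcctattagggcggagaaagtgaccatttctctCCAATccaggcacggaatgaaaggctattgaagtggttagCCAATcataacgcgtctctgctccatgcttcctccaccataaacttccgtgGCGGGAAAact
Cdk1 and Mcm6 show how the letters fell: Cdk1 has 2 CHR, 2 CCAAT and 1 E2F match in its stretch, and Mcm6 has 3 E2F and 2 CCAAT matches and no CHR. Promoter windows of 300 bases were found for 25 of the mitosis genes and 14 of the replication genes. CHR stood in 18 of 26 windows of mitosis genes (69.2%), in 2 of 15 of replication genes (13.3%) and in 17.9% of all 32851 windows. An E2F match stood in 6 of 15 windows of replication genes (40%), in 1 of 26 of mitosis genes, that of Cdk1 (3.85%), and in 2.26% of all windows. CCAAT stood in 80.8% of the mitosis, 60% of the replication and 37.4% of all windows. A match is a description of the letters and not a measured site.

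In LFC and HFC, the diets sampled from D6, cell cycle mRNAs stood highest at the first time point and were low at W15 and W18. On D6 the median level of the 30 mitosis genes was -0.40 in LFC and -0.17 in HFC, and that of the 19 replication genes was 0.15 and 0.29. Over the 8 LFC and HFC arrays of D6 to W0 the mitosis median averaged -0.98 ± 0.48 (SD, n = 8 arrays) and over the 4 arrays of W15 and W18 it averaged -2.91 ± 0.28 (SD, n = 4). For replication genes the averages were -0.61 ± 0.56 (SD, n = 8) and -2.13 ± 0.37 (SD, n = 4). Neither pair of ranges overlapped: the mitosis medians ran from -1.50 to -0.17 early and from -3.11 to -2.49 late, the replication medians from -1.18 to 0.29 early and from -2.56 to -1.79 late. Gene by gene, all 8 early arrays lay above all 4 late ones for 22 of 30 mitosis and 8 of 19 replication genes, against 1.39% of all 33688 probes tested. Among the early arrays, LFC D6 and LFC D10 differed from HFC in tissue markers. Their brown fat marker means were 2.96 and 3.34, against -2.58 and -3.48 in HFC. Their mesothelial marker means were -5.19 and -5.61, against 3.29 and 2.19 in HFC. The part of these markers in the early levels was not tested. A straight line through the array medians of each diet is given as a description. For mitosis genes its slope per week was -0.120 in LFC, -0.104 in HFC, -0.070 in HF5, -0.00012 in HF20 and -0.125 in HF75. For replication genes the slopes of the medians were -0.103, -0.076, -0.073, -0.016 and -0.055 in the same order. The mitosis median of HF20 was highest at W18 (-1.37), on an array whose dose labels conflict, and was -2.76 at W15. The HF5, HF20 and HF75 lines cover W3 to W18 only, and the difference between the slopes of the diets was not tested.

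**Figure D1:**
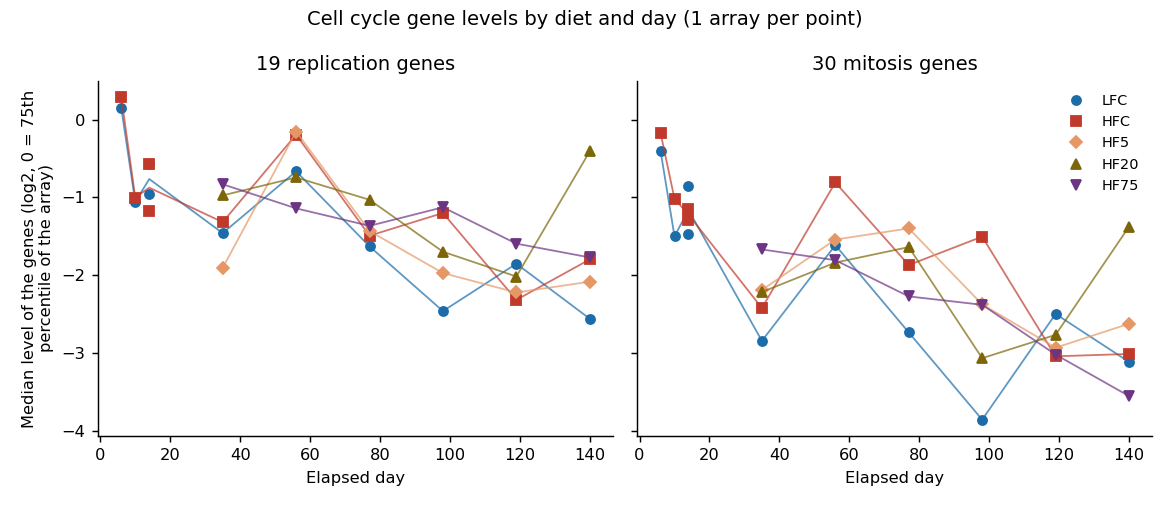
Median level of the 19 replication genes (left) and the 30 mitosis genes (right) against elapsed day, in log2 units with 0 at the 75th percentile of the array; each point is 1 array, and lines join the mean of the arrays of a diet on a day. The D6 arrays lie highest in both panels and the LFC W12 and HF75 W18 arrays have the lowest mitosis medians (-3.85 and -3.55), while HF20 at W18 lies well above the other diets of that week.

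The fall was not even. In LFC the mitosis median ranged from -3.85 (W12) over a median of -2.05 to -0.40 (D6), and in HFC from -3.04 (W15) over -1.40 to -0.17 (D6). The doses, sampled from W3, ran from -2.93 (W15) to -1.40 (W9) in HF5, from -3.06 (W12) to -1.37 (W18) in HF20 and from -3.55 (W18) to -1.67 (W3) in HF75. All 5 diets stood at or above -1.84 in W6, and all 5 at or below -2.49 in W15. The replication median ranged from -2.56 (W18) to 0.15 (D6) in LFC, from -2.31 (W15) to 0.29 (D6) in HFC, -2.22 to -0.15 in HF5, -2.01 to -0.41 in HF20 and -1.77 to -0.83 in HF75. In W6 the mean of 5 T cell markers lay between -0.54 and 1.62 and that of 4 B cell markers between 0.55 and 2.03. Over the 10 HFC arrays their medians were -1.75 and -2.43. LFC W12 had an adipocyte marker mean of 4.99. HFC W9 and HF75 W12, with adipocyte means of 5.28 and 5.38, had mitosis medians of -1.87 and -2.38. HF20 W12 had the lowest macrophage (-0.25), adipocyte (-0.77) and stromal progenitor (3.13) means of all arrays. The part of these cells in the W6 and W12 levels was not tested.

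**Figure D2:**
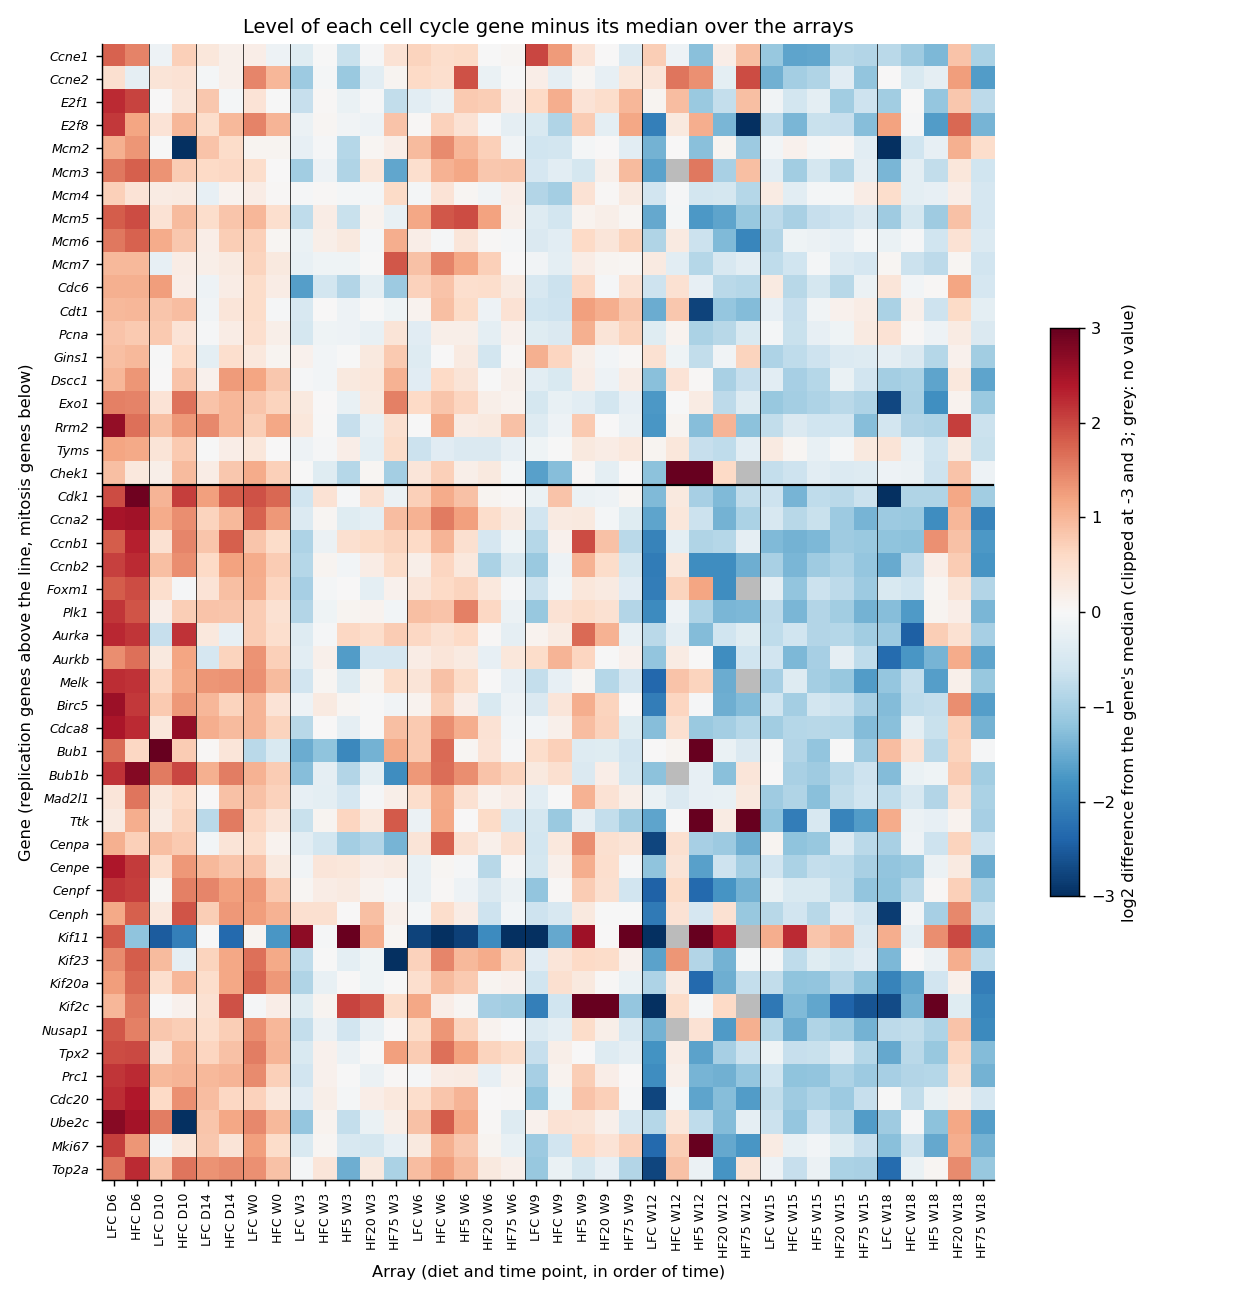
Level of each cell cycle gene minus its own median over the arrays (colour, log2, clipped at -3 and 3, grey where an outlier spot left no value) on the 38 arrays in order of time, replication genes above the line and mitosis genes below. Most rows are red on D6 and blue in W15, nearly whole columns shift together, and the rows of Kif11, Kif2c and Bub1 are erratic.

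To ask whether levels changed with elapsed time, a slope per week was fitted over all 38 arrays with diet as a factor and time point as a random block (limma, two-sided, Benjamini-Hochberg over all 33688 probes tested, threshold 0.05). Over all probes 35 were called, 34 of which fell, that is 0.101% of those tested; 9 of 29 mitosis genes and 2 of 19 replication genes were among those that fell. At an unadjusted p under 0.05, 26 mitosis and 12 replication genes fell and 0 rose, against 2.54% of all probes that fell. The slope was below 0 for 28 of 29 mitosis and 19 of 19 replication genes, with medians of -0.113 and -0.055 log2 per week, beside 15547 of all 33688 probes below 0 and a median of 0.003. Of the 35 probes called, 14 were probes of the 49 genes and 9 more were of other cell cycle genes described further on. Among called genes with more than 1 tested probe, the other probes of Dscc1 and Prc1 also passed (adjusted p 0.0366 and 0.0194). Those of Cdca8 (adjusted p 0.387), Cenpe (0.532 and 0.747) and Tpx2 (0.833 to 0.925) did not, though their slopes were below 0. Outlier spots left the fits of Melk, Foxm1, Kif2c, Mcm3, Nusap1, Bub1b and Chek1 with 37 arrays and that of Kif11 with 36.

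The number of genes called depended on single time points: it was 0 of 48 without W15, 1 (Exo1) without D6, D14, W0 or W9, 5 without D10, 8 without W12, 10 without W18 and 14 without W3 or W6, and 0 without D6, D10 and D14 together. The direction did not: under each of these, 46 or 47 of the 48 genes had a slope below 0. Without D6, D10 and D14, 20 mitosis and 4 replication genes fell at an unadjusted p under 0.05, against 1.24% of all probes.

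**Figure D3:**
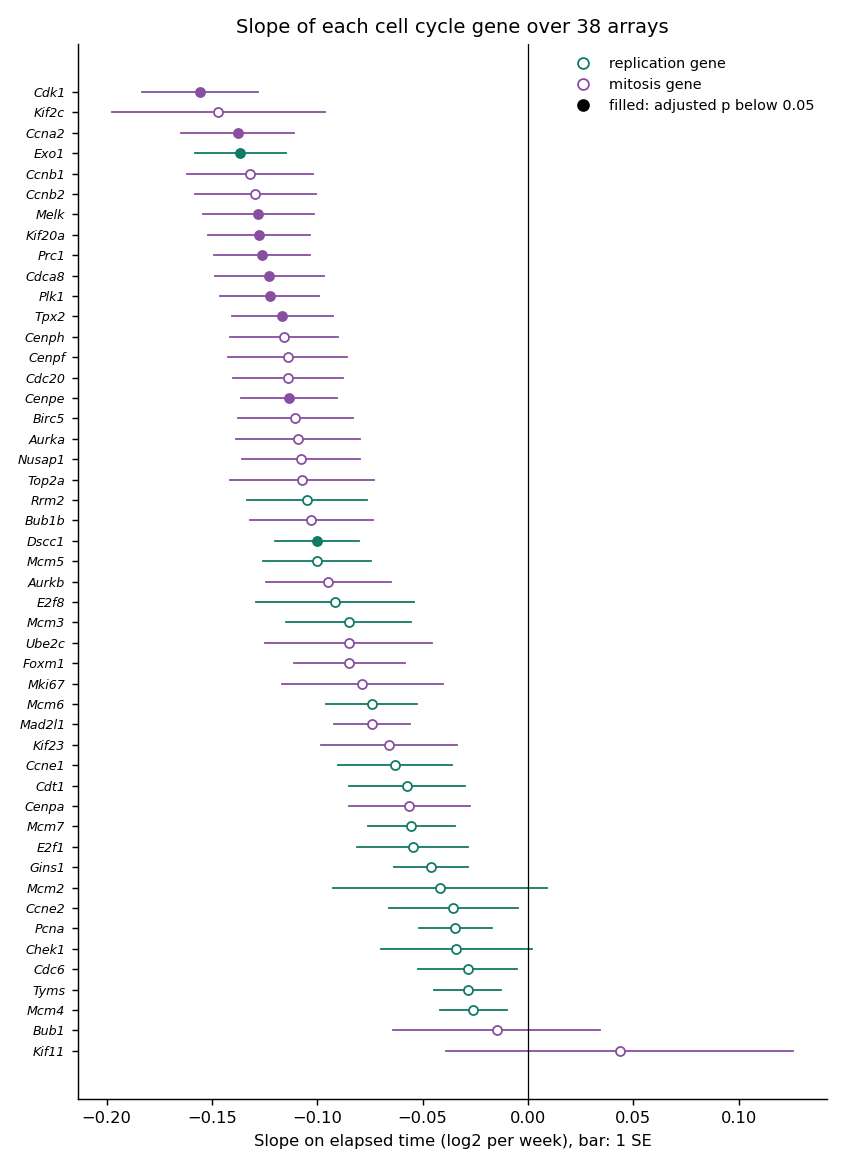
Slope on elapsed time of the 48 tested genes in log2 per week with bars of 1 SE, replication genes in green and mitosis genes in purple, filled where the adjusted p was below 0.05. All but Kif11 lie to the left of 0, and 9 of the 11 filled points are mitosis genes.

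Among the 11 genes called, Cdk1 and Ccna2 had the steepest slopes. Cdk1, whose protein drives the cell into mitosis, ran from -6.06 (W18) over a median of -2.65 to -0.95 (D6) in LFC and from -4.30 (W15) over -1.93 to 0.02 (D6) in HFC. In the doses its lowest, median and highest levels were -3.90, -3.38 and -2.03 in HF5, -4.24, -2.95 and -1.75 in HF20, and -3.96, -3.33 and -2.85 in HF75. Cdk1 fell by 0.156 log2 per week (SE 0.028, adjusted p 0.0188), which is 7.90-fold over the 19.1 weeks from D6 to W18; its LFC W18 value was not well above background. The 8 early LFC and HFC values, -1.89 to 0.02, all lay above the 4 late ones, -6.06 to -3.53.

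Ccna2, the cyclin of S phase and early mitosis, ran from -2.87 (W12) over -1.17 to 1.19 (D6) in LFC and from -2.41 (W18) over -0.63 to 1.22 (D6) in HFC, with lowest, median and highest levels of -3.16, -1.79 and -0.06 in HF5, -2.72, -1.46 and -0.29 in HF20 and -3.27, -1.94 and -0.36 in HF75. It fell by 0.138 per week (SE 0.027, adjusted p 0.0279). Ccnb1, a mitotic cyclin and partner of Cdk1, ran from -4.24 (W12) over -2.42 to -0.41 (D6) in LFC, from -3.64 (W15) over -1.89 to 0.11 (D6) in HFC, and between -3.58 and -0.27 in HF5, -3.28 and -1.34 in HF20 and -3.96 and -1.55 in HF75 (medians -1.74, -2.19 and -2.76). Its slope of -0.132 (SE 0.030, adjusted p 0.0595) and that of its sister Ccnb2, -0.129 (SE 0.029, adjusted p 0.0517), were as steep but missed the threshold. Without W6 both passed it. Ccnb1 had 5 probes, as had Tpx2, and 1 of the other probes of Ccnb1 fell by 0.172 per week (SE 0.034, adjusted p 0.0282), past the threshold. The remaining probes of Ccnb1 missed it, with adjusted p of 0.0517, 0.0995 and 0.309.

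Among the mitotic kinases Plk1, which acts from mitotic entry to cytokinesis, ran from -3.03 (W12) over -1.45 to 0.998 (D6) in LFC and from -2.85 (W18) over -0.71 to 0.74 (D6) in HFC. The dose arrays gave lowest, median and highest levels of -2.07, -1.07 and 0.35 (HF5), -2.51, -1.001 and -0.52 (HF20) and -2.56, -2.27 and -1.23 (HF75). Plk1 fell by 0.123 per week (SE 0.023, adjusted p 0.0221). Melk, a kinase of proliferating and progenitor cells, fell by 0.128 (SE 0.026, adjusted p 0.0356; 37 of 38 arrays, 1 outlier spot left out), from levels of up to -0.58 (LFC) and -0.62 (HFC), both on D6, to lows of -5.16 (LFC W12) and -3.51 (HFC W18). Its medians were -2.89 in LFC and -1.93 in HFC, and in the doses it ran from -4.45 over -2.96 to -2.12 (HF5), from -4.29 over -3.23 to -2.65 (HF20) and from -4.48 over -3.30 to -2.24 (HF75). The Aurora kinases Aurka and Aurkb had slopes of -0.109 (SE 0.029) and -0.095 (SE 0.030), with adjusted p of 0.174 and 0.384.

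Foxm1, the transcription factor of the mitotic genes, ran from -4.77 (W12) over -2.67 to -0.90 (D6) in LFC, from -3.88 (W15) over -2.42 to -0.74 (D6) in HFC, and between -3.34 and -1.52 in HF5, -4.58 and -2.32 in HF20 and -3.78 and -2.57 in HF75 (medians -2.50, -2.71 and -3.04). Its slope was -0.085 (SE 0.026, adjusted p 0.384). In the chromosomal passenger complex, which corrects the attachment of chromosomes to the spindle, Cdca8 (borealin) fell by 0.123 per week (SE 0.026, adjusted p 0.0372) and Birc5 (survivin) had a slope of -0.111 (SE 0.027, adjusted p 0.103). Cdca8 ran from -1.03 (W12) over 0.37 to 2.70 (D6) in LFC, from -0.62 (W15) over 0.82 to 2.88 (D10) in HFC, and between -0.86 and 1.33 in HF5, -0.78 and 0.96 in HF20 and -1.17 and 1.16 in HF75 (medians -0.22, 0.45 and -0.36). The early and late LFC and HFC arrays did not overlap for Foxm1, Cdca8 or Birc5.

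At the centromere, Cenpe, the kinesin that carries chromosomes to the spindle equator, fell by 0.113 per week (SE 0.023, adjusted p 0.0288). It ran from -1.25 (W12) over -0.20 to 2.39 (D6) in LFC, from -1.13 (W18) over 0.30 to 2.08 (D6) in HFC, and between -1.65 and 1.07 in HF5, -0.86 and 0.49 in HF20 and -1.51 and 0.22 in HF75 (medians -0.13, -0.23 and -0.53). Cenph and Cenpf, proteins of the kinetochore, had slopes of -0.116 (SE 0.026, adjusted p 0.0517) and -0.114 (SE 0.028, adjusted p 0.103). Cenpa, the histone of the centromere, gave -0.056 (SE 0.029, adjusted p 0.864). In the spindle checkpoint, which delays chromosome separation, the slopes were -0.103 for Bub1b, -0.074 for Mad2l1 and -0.015 for Bub1, none past the threshold (adjusted p 0.243, 0.0957 and 0.977). The probes of Bub1 disagreed, the other having a slope of -0.127 (SE 0.029, adjusted p 0.0631).

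Spindle and cytokinesis genes gave 3 of the calls. Prc1, which bundles the microtubules of the midzone, ran from -2.20 (W12) over -0.64 to 1.82 (D6) in LFC, from -1.55 (W15) over -0.15 to 1.89 (D6) in HFC, and between -1.73 and 0.41 in HF5, -1.77 and 0.13 in HF20 and -1.76 and -0.22 in HF75 (medians -0.77, -0.54 and -0.88). Prc1 fell by 0.126 per week (SE 0.023, adjusted p 0.0188), or 5.33-fold over the course. Kif20a, a kinesin of the same midzone, fell by 0.128 (SE 0.024, adjusted p 0.0221), with LFC levels of -3.60 (W18), -1.64 and 0.16 (W0) and HFC levels of -3.16 (W18), -0.88 and 0.14 (D6) as lowest, median and highest. Its dose levels ran from -3.92 over -1.86 to -0.82 (HF5), from -3.05 over -1.65 to -1.43 (HF20) and from -3.66 over -2.06 to -1.46 (HF75). The highest LFC and HFC values came before W3, when the doses were not yet sampled. At W6 Kif20a was -1.09 in LFC, -0.64 in HFC, -0.82 in HF5, -1.50 in HF20 and -1.46 in HF75. Tpx2, which starts microtubules near chromosomes, fell by 0.117 (SE 0.024, adjusted p 0.0349).

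Tpx2 ran from -4.13 (W12) over -2.23 to -0.40 (D6) in LFC, from -3.16 (W18) over -1.80 to -0.35 (D6) in HFC, and between -3.94 and -1.13 in HF5, -3.33 and -1.67 in HF20 and -3.64 and -1.11 in HF75 (medians -2.76, -2.53 and -2.79). Of the other kinesins and spindle genes, Nusap1 had a slope of -0.108, Kif23 of -0.066 and Kif2c of -0.147, none past the threshold. Kif11, the motor that pushes the spindle poles apart, was the 1 gene with a slope above 0 (0.044, SE 0.082), and its other probe had a slope of -0.083; of the 75 probes of the 49 genes that were tested, 74 had a slope below 0. Cdc20 and Ube2c, which work in the destruction of the mitotic cyclins, gave -0.114 (adjusted p 0.0642) and -0.085 (adjusted p 0.818). The Ube2c level at HFC D10, -5.17, was not well above background.

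Mki67 and Top2a, commonly used as markers of dividing cells, did not pass the threshold. Mki67, the Ki-67 antigen, was well above background on all 38 arrays and ran from -0.98 (W12) over 1.44 to 3.40 (D6) in LFC, from 0.69 (W18) over 1.71 to 2.67 (D6) in HFC, and between -0.20 and 4.53 in HF5, -0.20 and 2.44 in HF20 and -0.41 and 2.03 in HF75 (medians 1.60, 1.19 and 0.87). Its slope was -0.079 (SE 0.038, adjusted p 0.837), and the highest of its levels, 4.53, was on the dim HF5 W12 array. Top2a, the topoisomerase that untangles sister chromosomes, ran from -5.58 (W12) over -2.44 to -1.20 (D6) in LFC, from -3.52 (W15) over -1.95 to -0.58 (D6) in HFC, and between -4.29 and -1.86 in HF5, -4.59 and -1.40 in HF20 and -3.96 and -2.44 in HF75 (medians -2.99, -2.80 and -3.74). Its slope was -0.107 (SE 0.034, adjusted p 0.405). The early and late arrays overlapped for Mki67, 1.27 to 3.40 against 0.08 to 1.60, and did not for Top2a.

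**Figure D4:**
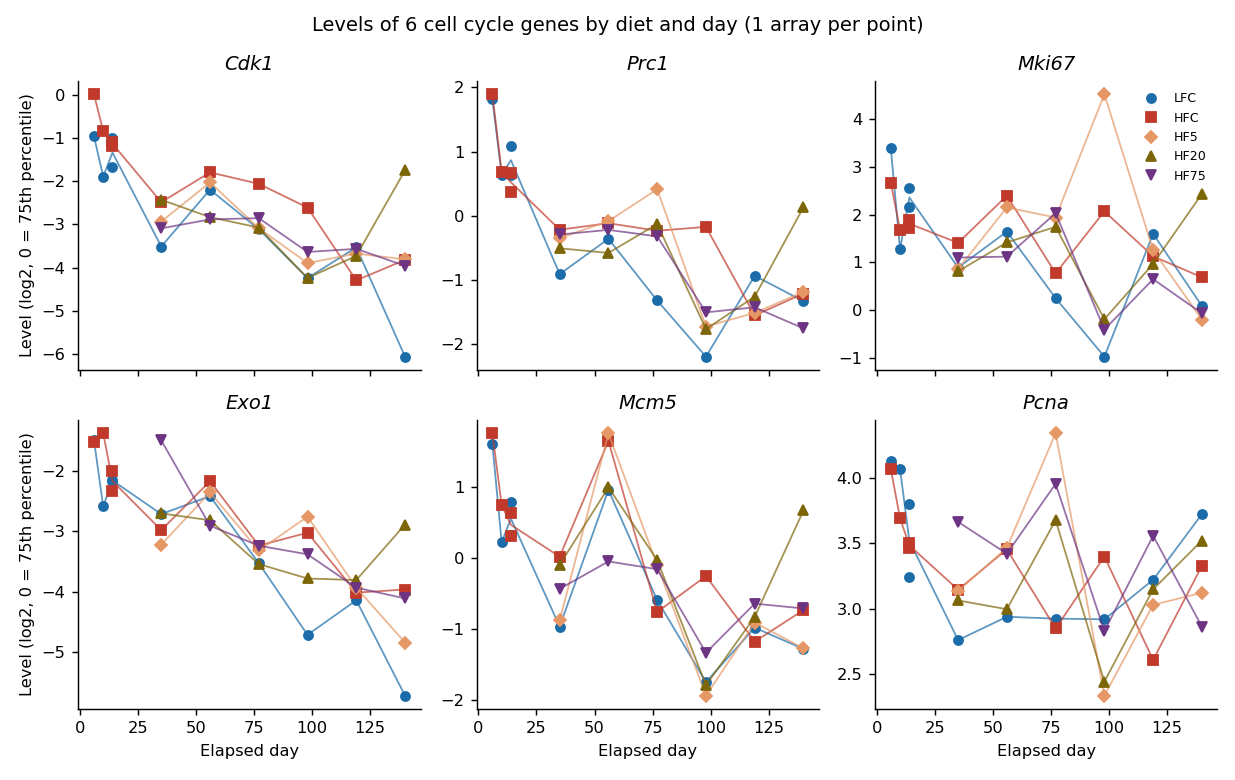
Levels of 6 cell cycle genes against elapsed day (log2, 0 at the 75th percentile of the array), 1 point for each array in the colour and shape of its diet, with lines through the mean of a day. Cdk1, Prc1 and Exo1 fell over the course, Mki67 has its highest point at HF5 W12, and Pcna spans only 2.34 to 4.34.

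The replication genes past the threshold were Exo1 and Dscc1. Exo1, an exonuclease of mismatch repair, ran from -5.73 (W18, not well above background) over -2.65 to -1.48 (D6) in LFC, from -4.02 (W15) over -2.66 to -1.37 (D10) in HFC, and between -4.85 and -2.36 in HF5, -3.81 and -2.70 in HF20 and -4.11 and -1.49 in HF75 (medians -3.27, -3.22 and -3.31). Exo1 fell by 0.136 per week (SE 0.021, adjusted p 0.00433), 6.11-fold over the course, and stayed below the threshold in 16 of 20 alternatives, the most of any of the 11 genes. Dscc1, a subunit of a clamp loader that acts in sister chromatid cohesion, fell by 0.1001 (SE 0.020, adjusted p 0.0280). It ran from -3.72 (W12) over -2.63 to -1.28 (W0) in LFC, from -3.44 (W15) over -1.96 to -1.12 (D6) in HFC, and between -4.05 and -2.07 in HF5, -3.44 and -2.12 in HF20 and -4.03 and -1.42 in HF75 (medians -2.33, -2.54 and -2.67). Pcna, the sliding clamp of the polymerases, stayed within narrow bounds: 2.76 (W3) over 3.23 to 4.13 (D6) in LFC, 2.61 (W15) over 3.43 to 4.07 (D6) in HFC, and 2.34 to 4.34, 2.44 to 3.68 and 2.83 to 3.96 in HF5, HF20 and HF75 (medians 3.13, 3.11 and 3.49). The slope of Pcna was -0.034 (SE 0.017, adjusted p 0.859), and that of Gins1, a subunit of the replicative helicase, -0.046 (SE 0.018, adjusted p 0.640).

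Of the licensing genes, whose proteins load the helicase onto origins, Mcm5 had the steepest slope, -0.10002 (SE 0.026, adjusted p 0.126). Its levels ran from -1.74 (W12) over -0.18 to 1.61 (D6) in LFC, from -1.17 (W15) over 0.17 to 1.76 (D6) in HFC, and between -1.93 and 1.76 in HF5, -1.79 and 0.998 in HF20 and -1.33 and -0.04 in HF75 (medians -0.89, -0.06 and -0.53). The HF5 W6 level, 1.76, lay beside that of HFC on D6, also 1.76. Mcm2 ran from -5.97 (W18) over -1.09 to 0.03 (D6) in LFC, from -6.66 (D10) over -0.99 to 0.38 (W6) in HFC, and between -2.30 and -0.04 in HF5, -1.02 and 0.03 in HF20 and -2.14 and -0.52 in HF75 (medians -1.20, -0.96 and -1.25). Its slope was -0.042 (SE 0.051, adjusted p 0.937), and both of its lowest values were not well above background. Mcm3, Mcm6, Mcm7 and Mcm4 gave slopes of -0.085, -0.074, -0.055 and -0.026, and the loading factors Cdt1 and Cdc6 gave -0.057 and -0.029, none past the threshold.

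Rrm2, the regulated subunit of ribonucleotide reductase, ran from -4.24 (W12) over -2.32 to 0.15 (D6) in LFC, from -3.36 (W18) over -1.95 to -0.85 (D6) in HFC, and between -3.77 and -1.70 in HF5, -3.10 and -0.41 in HF20 and -3.78 and -1.60 in HF75 (medians -3.14, -2.35 and -2.90). Its slope was -0.105 (SE 0.029, adjusted p 0.183), while that of Tyms, which makes thymidylate, was -0.029 (SE 0.016). E2f1 ran from -3.86 (W18) over -2.78 to -0.59 (D6) in LFC, from -3.37 (W15) over -2.81 to -0.80 (D6) in HFC, and between -3.99 and -2.04 in HF5, -3.87 and -2.01 in HF20 and -3.60 and -1.83 in HF75 (medians -3.07, -2.58 and -3.04). Its slope was -0.055 (SE 0.026, adjusted p 0.834); the repressor E2f8 gave -0.092, the cyclins Ccne1 and Ccne2 gave -0.063 and -0.035, and the checkpoint kinase Chek1 gave -0.034, none past the threshold.

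Each control diet was also fitted alone, with 10 arrays and no block. In LFC 0 of 28466 probes were called; 27 of 29 mitosis genes (median slope -0.137) and 9 of 19 replication genes (-0.081) fell at an unadjusted p under 0.05, against 2.42% of all probes. The smallest p there were those of Exo1 (-0.178 per week, SE 0.027), Cenph (-0.179, SE 0.029) and Cdk1 (-0.202, SE 0.036), each with an adjusted p of 0.638. Exo1, Cenph and Cdk1 were not well above background at LFC W18, the last array of that fit. Its first arrays, LFC D6 and LFC D10, had brown fat marker means of 2.96 and 3.34, against -3.63 to -0.45 on later LFC arrays. Their mesothelial marker means were -5.19 and -5.61, against 0.04 to 1.97 later. The adipocyte marker mean was highest at LFC W9 and W12 (5.35 and 4.99). The part of these markers in the LFC slopes was not tested. In HFC 0 of 30872 probes were called; 23 mitosis genes (-0.115) and 9 replication genes (-0.055) fell at an unadjusted p under 0.05, against 4.41% of all probes. Cdk1 (-0.174, SE 0.027), Exo1 (-0.120, SE 0.022) and Ccnb1 (-0.155, SE 0.030) led, each with an adjusted p of 0.393. From W3 to W18 alone, over all 5 diets and 30 arrays, 0 probes were called, and 10 mitosis (median -0.069) and 3 replication genes (-0.042) fell at an unadjusted p under 0.05, against 0.825% of all probes, led by Exo1 (-0.123, SE 0.034), Dscc1 (-0.086, SE 0.031) and Tpx2 (-0.097, SE 0.037), each with an adjusted p of 0.986.

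Other genes of division, listed apart from the 49, were measured on the same arrays. Their lists were also drawn up with earlier results of these data known. Most of the mitosis and replication genes among them had slopes below 0. Of 44 other mitosis genes tested 7 were called as falling and 41 had a slope below 0 (median -0.079), led by Pbk, a mitotic kinase (-0.169, SE 0.031, adjusted p 0.0188), Ect2, which starts the cleavage furrow (-0.106, SE 0.020, adjusted p 0.0188), and Nuf2 of the kinetochore (-0.137, SE 0.026, adjusted p 0.0223). Of 35 other replication genes 2 were called, among them Brca1, which acts in DNA repair (-0.122, SE 0.026, adjusted p 0.0458), and 33 were below 0 (median -0.045). Of 21 G1 genes tested (D cyclins, their kinases, inhibitors and pocket proteins) 0 were called, 1 fell at an unadjusted p under 0.05 (Cdk4, -0.045, SE 0.020) and 9 were below 0 (median 0.005). No cell type marker list had a called gene: the median slope was -0.009 for 8 macrophage, -0.005 for 6 stromal progenitor, 0.024 for 5 endothelial, 0.016 for 9 adipocyte, -0.013 for 5 T cell, -0.003 for 4 B cell, -0.060 for 4 erythroid, 0.128 for 4 mesothelial, -0.191 for 5 epididymis, -0.045 for 6 sperm, -0.037 for 3 brown fat and 0.011 for 3 spermatocyte markers. The part of these markers in the slopes of the cell cycle genes was not tested.

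The genes varied together from array to array. Over the 38 arrays the median Pearson correlation was 0.738 between 23 mitosis genes with a value on every array (253 pairs), 0.485 between 17 replication genes (136 pairs), 0.556 between the groups, and -0.015 for mitosis and -0.003 for replication genes with all other probes tested. After diet and elapsed day were removed the medians were 0.572, 0.346 and 0.408, and 0.021 and 0.020 with the other probes. These are descriptions over arrays that share time points, scan days and the scaling of each array.

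The 2 control diets were compared at matched time points, with time point as a fixed block. Most mitosis genes had a higher mean in HFC than in LFC, but no probe passed the threshold (0 of 31026, smallest adjusted p 0.545). The median difference was 0.385 log2 over 29 mitosis genes, 26 of them above 0, and 0.102 over 19 replication genes, 14 of them above 0, beside 0.006 over all probes; with another background correction, normexp, which moved the median of all probes to -0.294, these were 0.002 and -0.204, so the replication median changed sign. At an unadjusted p under 0.05, 7 mitosis and 0 replication genes were higher, against 4.57% of all probes. The W12 pair carried much of the size: without it the medians were 0.226 and 0.042.

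Cdk1 averaged -2.02 in HFC and -2.82 in LFC, a difference of 0.80 (SE 0.26, adjusted p 0.545), higher in HFC at 8 of 10 time points. Ccnb1 differed by 0.60 (SE 0.20, adjusted p 0.545), with HFC higher at 7 of 10, and Cenph by 0.89 (SE 0.31, adjusted p 0.545), at 8 of 10. For the replication genes of smallest p, Exo1, Mcm5 and Dscc1, the differences were 0.50 (SE 0.24), 0.38 (SE 0.20) and 0.38 (SE 0.23), with adjusted p of 0.545, 0.545 and 0.576. Under normexp the signs of Cenph, Exo1 and Dscc1 turned. Cdk1, Cenph and Exo1 were not well above background at LFC W18. HFC was above LFC for 17 of the 30 mitosis genes at D6, 24 at D10, 21 at D14, 2 at W0, 26 at W3, 26 at W6, 29 at W9, 26 of the 27 measured on both arrays at W12, 7 at W15 and 21 at W18. The W12 pair stood apart, with a median difference of 2.01 over the mitosis genes, and W0 and W15 ran the other way. The W12 arrays also differed in markers: the adipocyte mean was 4.99 in LFC and 2.45 in HFC, and the macrophage mean 1.29 and 3.04. HFC W12 had 4850 outlier spots, against 50 on LFC W12. Over the 10 time points, macrophage markers had a median difference of 0.64, with 8 of 8 above 0, endothelial markers -0.63 with 0 of 5, and adipocyte markers -0.59 with 1 of 9. Mesothelial markers had a median difference of 1.85 with 4 of 4 above 0, epididymis markers 1.68 with 4 of 4, sperm markers 1.22 with 5 of 5 and brown fat markers -1.77 with 0 of 3. None of these markers passed the threshold, and their part in the cell cycle differences was not tested.

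The difference between HFC and LFC did not change with elapsed time past the threshold for any probe (0 of 31026, smallest adjusted p 0.981); 1 of the 48 genes, Mcm2 (0.222 per week, SE 0.083), and 3.19% of all probes were higher at an unadjusted p under 0.05. The Mcm2 slope rests on the LFC W18 and HFC D10 values that were not well above background. From W3 to W18, in a fit that shares its HFC arrays with the doses, the median differences were 0.627 over mitosis genes (28 of 29 above 0) and 0.304 over replication genes, beside 0.046 over all probes, and 0.352 and 0.080 without W12. There 0 of 33709 probes were called, and 7 mitosis genes were higher at an unadjusted p under 0.05, against 2.38% of all probes. Cenph (1.05, SE 0.41), Melk (0.97, SE 0.40) and Cdca8 (0.77, SE 0.34) led the mitosis genes, the last pair higher in HFC at 6 of 6 weeks, and Mcm2 (1.11, SE 0.56), Exo1 (0.64, SE 0.35) and Cdt1 (0.70, SE 0.41) the replication genes, each with an adjusted p of 0.9996. Of these, Cenph, Melk, Mcm2 and Exo1 were not well above background at LFC W18. There Mcm2 was -5.97, against -1.64 at HFC W18. Under normexp, with the median of all probes at -0.252, the replication median was -0.107 and Cenph and Exo1 changed sign.

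**Figure D5:**
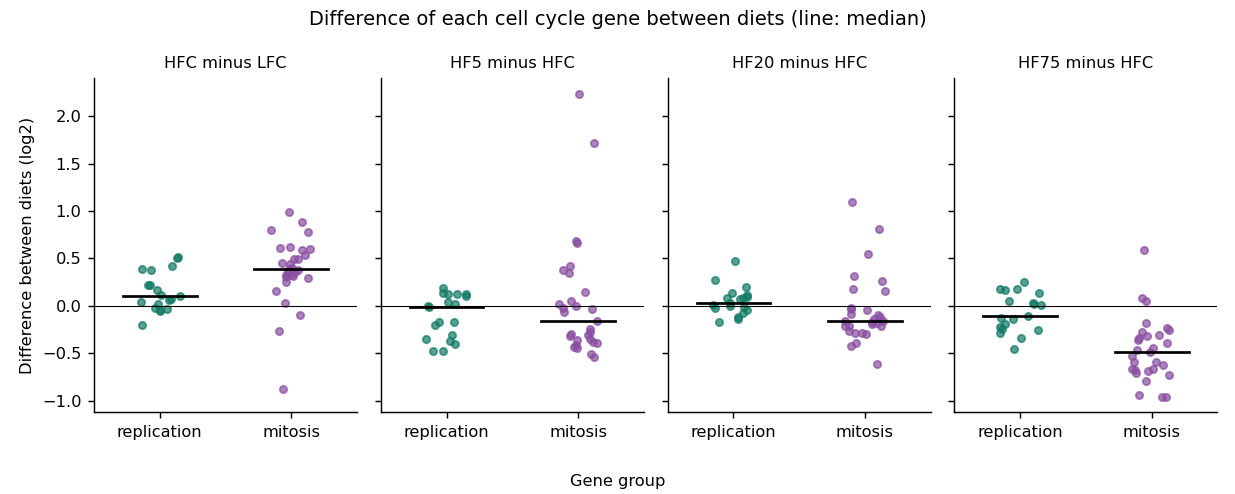
Difference of each tested cell cycle gene between diets at matched time points (log2), 1 point per gene and a line at the group median, for HFC minus LFC and for each dose minus HFC. The mitosis genes lie mostly above 0 in the first panel (median 0.385) and mostly below 0 in the last (median -0.487), with no gene past the threshold in any panel.

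Each dose of KAL-1 was set against HFC of its own week, and the 3 comparisons share the 6 HFC arrays. The scan day differed from that of HFC for HF5 at W9 and for HF20 at W3, W9 and W18. For HF75 it differed at W3, W6, W9 and W18. No probe was called in any of them (0 of 33709 each). With HF5 the medians were -0.157 over mitosis and -0.017 over replication genes, and 1 gene, Kif2c (1.72, SE 0.82, 3 of 6 weeks), was higher at an unadjusted p under 0.05, against 3.68% of all probes; Aurka differed by 0.69 (SE 0.39), Kif11 by 2.24 (SE 1.34), E2f1 by -0.48 (SE 0.36), Ccne1 by -0.47 (SE 0.39) and Mcm5 by -0.35 (SE 0.33). Kif2c, Aurka, E2f1, Ccne1 and Mcm5 were not well above background on the dim HF5 W12 array of this comparison. Aurka, E2f1, Ccne1 and Mcm5 were -2.02, -3.94, -1.97 and -1.93 there, against -0.99, -1.90, -0.89 and -0.25 at HFC W12. Kif11 was 1.70 at HF5 W12 and had no value at HFC W12. The brown fat marker mean was 5.20 and -2.90 on these arrays, and its part was not tested. Under normexp, which moved the median of all probes to 0.4996, the HF5 medians were 0.602 and 0.464. With the dose taken from the conflicting diet labels they were 0.0809 and 0.144. With HF20 the medians were -0.159 and 0.030, of which the first changed sign in 4 and the second in 6 of 16 alternatives, and 0 genes reached an unadjusted p under 0.05; the smallest p of each group were those of Melk (-0.61, SE 0.40), Aurka (0.54, SE 0.39), Ube2c (-0.43, SE 0.39), Rrm2 (0.47, SE 0.43), Tyms (-0.14, SE 0.23) and Ccne1 (0.20, SE 0.39).

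The HF5 difference of Kif2c came from 3 weeks. Its level was -1.86, -0.27 and -0.20 in HF5 at W3, W9 and W18, against -3.80, -4.47 and -5.33 in HFC, and between -5.43 and -3.83 in HF5 at W6, W12 and W15. Without W18 the difference was 1.03, and with the dose taken from the diet label it was 0.901. Sperm and spermatid markers moved with it: their mean level was 1.099, 2.632 and 2.717 in HF5 at W3, W9 and W18, against -1.40, -5.78 and -2.75 in HFC. HF20 at W9 had a Kif2c level of -0.27 and a sperm marker mean of 2.63. Over the weeks their median difference was 2.72 in HF5, with 6 of 6 above 0, and that of spermatocyte markers was 1.501, with 3 of 3. In HF20 sperm and spermatid markers differed by 1.39, with 6 of 6 above 0, and adipocyte markers by -1.51, with 1 of 9. The part of these markers in the HF5 and HF20 differences of the cell cycle genes was not tested.

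With HF75, 26 of 29 mitosis genes lay below HFC, with a median of -0.487, against -0.107 over replication genes and 0.038 over all probes. Ube2c, the ubiquitin-conjugating enzyme of the anaphase-promoting complex, was at -2.59 in HF75 and -1.62 in HFC, a difference of -0.97 (SE 0.39), and Kif23, a kinesin of cytokinesis, differed by -0.96 (SE 0.44); both were lower at 5 of 6 weeks and reached an unadjusted p under 0.05 (0.0216 and 0.0398; limma), against 1.26% of all probes lower. Kif23 rested in part on W3, where it was -5.53 in HF75, not well above background, and -2.50 in HFC: without W3 its difference was -0.55, and under normexp it was -0.25. Neither gene passed the threshold (adjusted p 0.9999), nor did Cdca8 (-0.66, SE 0.34), Mcm5 (-0.34, SE 0.33), Pcna (0.25, SE 0.27) or E2f8 (-0.46, SE 0.61). By week, HF75 was below HFC for 12 of 30 mitosis genes at W3, 29 at W6, 23 at W9, 21 of the 24 measured on both arrays at W12, 15 at W15 and 26 at W18, so the difference was seen at W6, W9, W12 and W18 and not at W3 or W15. HF75 and HFC shared a scan day at W12 and W15 only. At the other weeks dose and scan day cannot be told apart. At W12 the HF75 array had 6257 outlier spots and the HFC array 4850. The adipocyte marker mean at W12 was 5.38 in HF75 and 2.45 in HFC, and the macrophage marker mean 1.71 and 3.04. The HF75 W3 array was dim, with 13 genes not well above background. T cell markers had a median difference of -0.83 in HF75, with 5 of 5 below 0, and macrophage markers of -0.29, with 5 of 8 below 0. The part of these markers, and of those at W12, in the difference of the mitosis genes was not tested. The mitosis median of HF75 stayed below 0 in all 15 alternatives, from -0.788 to -0.250, whereas the replication median changed sign in 5. The mean of the doses differed from HFC by a median of -0.221 over mitosis and -0.056 over replication genes, with Ube2c (-0.65, SE 0.32), Melk (-0.56, SE 0.33), Kif23 (-0.55, SE 0.36), E2f1 (-0.29, SE 0.29), Mcm5 (-0.22, SE 0.27) and Mcm4 (0.14, SE 0.21) of smallest p.

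HF20 at W18 was the 1 dose array on which every gene lay on the same side of HFC: all 30 mitosis and all 19 replication genes lay above HFC of that week, by medians of 1.48 and 1.01. Its mitosis median was -1.37, against -3.11, -3.01, -2.62 and -3.55 in LFC, HFC, HF5 and HF75. That array is 1 of the 4 whose dose labels conflict, and it was scanned on another day than LFC, HFC and HF5 of W18 but on the same day as HF75, which lay below HFC for 26 of 30 mitosis genes. Without W18 the HF20 medians were -0.46 over mitosis and -0.15 over replication genes.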

How the data were processed

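38 one-colour arrays were used, 1 per diet and time point. The deposited files hold each spot's processed signal intensity, which per the file headers the authors' scanner software (Agilent Feature Extraction, version 9.1 in the submitters' processing notes, a later one in the headers) background-subtracted and detrended without scaling between arrays. A series table holds log2 ratios to the LFC array of the time point, normalised by the authors in GeneSpring and used only as an alternative; the dose arrays of week 9 were deposited as rounded values. All value columns matched a sample (0 unmatched).

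Control spots and outlier flags were left out, spots of a probe averaged, and the array's log2 75th percentile subtracted. Probes well above background on at least a share of 0.5 of the arrays of a diet were tested with limma 3.58.1 (statmod 1.5.0, R 4.3.3), with p-values two-sided and adjusted by Benjamini and Hochberg's method across every tested probe, at a threshold of 0.05. The slope used elapsed weeks, diet as factor and time point as random block (correlation 0.273); the diets were compared with time point as fixed block, since arrays of a time point share the age of the mice and, for LFC and HFC, the scan day. Tables and figures used Python 3.11.15, numpy 2.4.6, pandas 2.3.3 and matplotlib 3.10.9. Arrays of different time points serve as replicates, so p-values measure the spread between these arrays alone, and the number of arrays limits the precision. 69.253% of probes matched a RefSeq gene table by accession, and 3897 were renamed.

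Full values were given for Mki67, Top2a, Cdk1, Ccnb1, Foxm1, Pcna, Mcm2, Mcm5, Rrm2 and E2f1 and for genes past the threshold, or else the 3 of smallest p of the replication and of the mitosis group; for the lists of other replication, other mitosis and G1 genes, at most the 3 of smallest p, of which 1 is not reported here. The members, the lists and the marker lists were chosen with earlier results of these data known. Alternatives were quantile normalisation, normexp (offset 50), both other filters, brightness, scan day and slide, the block left out, the methods' t-test, the authors' ratios, the dose from the diet label, and time points left out.

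On simulated data, slopes of -0.1 and -0.2 log2 per week were recovered for 42 and 80 of 100 probes (33688 tested, 12 false of 134 calls), and HFC minus LFC differences of 1 and 2 log2 for 6 of 93 and 64 of 95 (31026 tested, 6 false of 76).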

Additional observations from a re-analysis of the deposited data

Results flagged for a closer look

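2 of the 110 groups of arrays examined (the levels of 20 named genes and both group medians in each diet) held a value far from the others of its diet, where chance gives about 1 group in 20, or 5.5. Both were of Mcm2, a subunit of the helicase loaded at origins: -6.66 at HFC D10 and -5.97 at LFC W18. Mcm2 was not well above background on either array, and the cause of the low values was not tested.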

How the results depend on the processing

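Over all diets, the slope medians of both groups stayed below 0 in all 21 alternatives (mitosis -0.128 to -0.0709, replication -0.0651 to -0.0353). The number of genes called did not hold: against 11, it was 4 with normexp background correction, 0 with probes well above background on every array (12 genes left), 0 without weeks 9 and 12, 7 with scan day as block, 19 with slide as block, and 0 to 14 with 1 time point left out. Arrays of a time point were paired by the block; with no replicate block 25 genes were called (2 from W3 to W18, where slide as block gave 1), and no other call changed. Without HF5 W12 12 were called and without D6, D10 and D14 0; these were chosen after seeing the data. HFC minus LFC gave 0 calls in the methods' t-test and with the authors' ratios, and with normexp 2 genes were among 5311 probes called, 5203 of them lower. Normexp also gave LFC slope medians of -0.0316 (replication) and -0.0635 (mitosis), and HF5 medians of 0.464 and 0.602.

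Some named genes changed sign, in comparisons with no call in the reported fit. With normexp, HFC minus LFC was -0.304 for Exo1, -0.106 for Dscc1 and -0.0847 for Cenph; its change per week was -0.0324 for Exo1, -0.00198 for E2f1, -0.0342 for Cenph and -0.0173 for Top2a; from W3 to W18 it was -0.319 for Exo1 and -0.170 for Cenph. HF5 gave 0.541 for E2f1, 0.103 for Ccne1 and 0.210 for Mcm5, HF20 gave 0.510 for Melk and 0.452 for Ube2c, and the mean of the doses gave 0.302 for E2f1, 0.0702 for Mcm5, -0.0889 for Mcm4, 0.156 for Ube2c, 0.353 for Melk and 0.258 for Kif23. With the dose from the diet label, Ccne1 was 0.0169 in HF5 and -0.294 in HF20, and Rrm2 -0.0332 in HF20. Scan day as block gave -0.0265 for Pcna in HF75 and -0.150 for Mcm4 in the mean. Tyms in HF20 was 0.0125 without weeks 9 and 12. With 1 time point left out, HF20 minus HFC ranged from -0.0268 to 0.732 for Rrm2, -0.265 to 0.0555 for Tyms and -0.151 to 0.490 for Ccne1, HF75 minus HFC from -0.963 to 0.125 for E2f8, and the mean of the doses from -0.398 to 0.0218 for Mcm5 and -0.0815 to 0.294 for Mcm4. The cause was not tested. Dim probes limit Mcm2, Exo1, Cdk1, Cenph and Melk at LFC W18 and most genes at HF5 W12.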
